A study of Mus musculus with 12 samples.

Results

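The genes described here mark the ganglionic eminences of the embryonic forebrain and the neurons they send out. They are 37 genes in 3 roles: 11 of eminence progenitors, 14 of striatal neurons and 12 of migrating interneurons. The roles name the lists, and the cells that held these RNAs were not identified here. Members were found as all probe sets that the platform annotation gave to a single one of these genes. This yielded 69 probe sets for 35 of the 37 genes, out of 18194 genes with such a probe set in all. Sp9 and Adora2a had none and were not analysed here. A gene entered the tests when a probe set read above 5.21 on the log2 scale, the median of all deposited values, on at least 3 of the 12 arrays. This left 28 members, namely 7 progenitor, 11 striatal and 10 interneuron genes, among 11785 tested genes.

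RNA came from a caudal or a rostral piece of the E14 mouse cortex (embryonic day 14). The 4 groups of 3 arrays were caudal cortex of AP2gamma k.o. mice (KO, animals 1, 2 and 13), caudal cortex of wt mice (WT, animals 4, 6 and 14), rostral KO cortex (animals 7, 8 and 15) and rostral WT cortex (animals 10, 12 and 16). AP2gamma is the transcription factor encoded by Tfap2c. The strain, the allele and the cells in which it was deleted are not given in the sources used here. The labels give each of the 12 arrays an animal number of its own. Below, the values of a group stand in the order of its animals as listed.

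The ganglionic eminences lie in the ventral telencephalon, where progenitors express transcription factors of the Dlx, Gsx and, in the medial eminence, Nkx2 families. Their daughters make the inhibitory transmitter GABA. Some settle nearby as projection neurons of the striatum, and others migrate tangentially into the cortex and become interneurons. The cortex itself, or pallium, makes glutamatergic neurons from progenitors of its own, so at this age its wall holds both kinds of cell. Several members, among them Meis2, Zeb2 and Pbx3, are also expressed by pallial cells.

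As to the series as a whole, array medians lay at 5.21 or 5.22. Tfap2c ran from 7.44 to 8.63 on the 6 KO arrays and from 8.54 to 9.19 on the 6 WT arrays. Whether its probe set lies outside the deleted part was not examined here. Xist, the RNA of the inactive X chromosome, was high on caudal WT array 6 (11.32) and rostral WT array 12 (11.89) alone. Eif2s3y, a gene of the Y chromosome, read 0.20 and 2.60 on these arrays and 8.49 to 9.15 on all others. By these genes, sex was not balanced between the KO and WT arrays. Animals 13 to 16, which fall 1 to a group, stood apart from the others on many probe sets. Rostral KO array 15 stood apart in markers of meninges and vessels, with a mean of 7.70 over the 10 tested of 12 genes, against 5.97 to 6.59 on the other 11 arrays. The main results that changed without one of these arrays are given with and without it.

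The 250 bases before the transcription start are shown for 4 members (RefSeq, GRCm38.p6, 5′ to 3′ on the strand of the gene). RefSeq entries matched 29 of the 37 genes, with 39 starts. Olig2 and Isl1 were lower in caudal cortex, and Sst was higher there. Gad2, which encodes an enzyme that makes GABA, holds motifs of the AP2 family but was called different in no comparison of genes below. Capitals mark matches to 4 motifs searched on both strands: the AP2 palindrome GCCNNNGGC, the homeodomain core TAATTA, the cAMP response element TGACGTCA and the TATA box TATAAA.
Olig2, chr16:91225300-91225549, plus strand: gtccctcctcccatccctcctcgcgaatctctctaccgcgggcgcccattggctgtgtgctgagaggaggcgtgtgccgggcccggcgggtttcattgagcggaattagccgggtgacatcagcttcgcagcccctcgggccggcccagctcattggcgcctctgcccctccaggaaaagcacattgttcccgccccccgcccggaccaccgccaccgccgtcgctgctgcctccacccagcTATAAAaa
Isl1, chr13:116309689-116309938, minus strand: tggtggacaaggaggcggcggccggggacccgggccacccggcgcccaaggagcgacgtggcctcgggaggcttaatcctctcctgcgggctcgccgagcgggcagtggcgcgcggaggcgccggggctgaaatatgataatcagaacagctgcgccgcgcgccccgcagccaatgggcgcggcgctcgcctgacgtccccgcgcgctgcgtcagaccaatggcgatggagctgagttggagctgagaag
Sst, chr16:23890845-23891094, minus strand: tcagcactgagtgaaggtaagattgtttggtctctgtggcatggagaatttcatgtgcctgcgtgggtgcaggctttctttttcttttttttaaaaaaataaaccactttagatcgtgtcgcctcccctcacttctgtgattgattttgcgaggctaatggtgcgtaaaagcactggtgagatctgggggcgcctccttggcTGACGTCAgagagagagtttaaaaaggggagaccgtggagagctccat
Gad2, chr2:22622077-22622326, plus strand: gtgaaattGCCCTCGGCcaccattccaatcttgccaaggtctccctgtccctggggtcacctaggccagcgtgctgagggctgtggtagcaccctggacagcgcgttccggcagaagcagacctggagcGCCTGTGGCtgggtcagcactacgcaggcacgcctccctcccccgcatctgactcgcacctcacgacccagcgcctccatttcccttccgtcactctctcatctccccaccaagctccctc
The Olig2 window held a match to the TATA box from 8 to 3 bases before the start, and the Isl1 window held none of the 4 motifs. The Sst window held the cAMP response element from 48 to 41 bases before the start, and the Gad2 window held 2 AP2 palindromes, from 242 to 234 and from 121 to 113 bases before it. Among all 32851 promoter windows of this length, 13.7% held the AP2 palindrome, 12.4% the TATA box, 4.84% the homeodomain core and 1.55% the cAMP response element. Of the 39 member windows, 7 held the AP2 palindrome (2 overlapping windows of Zeb2, and 1 each of Gad2, Gsx1, Ikzf1, Nkx6-2 and Sp9), 6 the TATA box and 1 each the homeodomain core (Tac1) and the cAMP response element (Sst). A match describes the letters alone and is not a measured binding site.

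The regional comparison asks how these genes differ between caudal and rostral cortex, in each genotype. Averaged over KO and WT cortex, 4 of 7 tested progenitor genes (Dlx1, Dlx2, Dlx5 and Olig2) and 3 of 11 striatal genes (Isl1, Pbx3 and Six3) were lower in caudal cortex, and 1 of 10 interneuron genes, the peptide gene Sst, was higher there. In KO cortex alone 3 of the 28 members passed, all lower caudally (Isl1, Olig2 and Pbx3), against 0.95% of all tested genes in either direction and 0.73% lower. In WT cortex alone 2 passed, both lower caudally (Isl1 and Olig2), against 0.942% of all tested genes and 0.687% lower. In the averaged contrast, which was added after the data were seen, 8 of 28 passed, against 4.46% of all tested genes (7 lower against 3.21%, and 1 higher against 1.26%). All calls are limma p-values adjusted by the Benjamini-Hochberg method over the 11785 genes, with a threshold of 0.05. Dlx6, Olig2, Isl1 and Ebf1 exceeded 5.21 on rostral arrays alone, and Gsx2 and Six3 on rostral arrays and caudal WT array 6 alone. The filter thus admitted all of these genes through the region in which they were high. The counts over members that passed the filter are therefore a description.

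**Figure D1:**
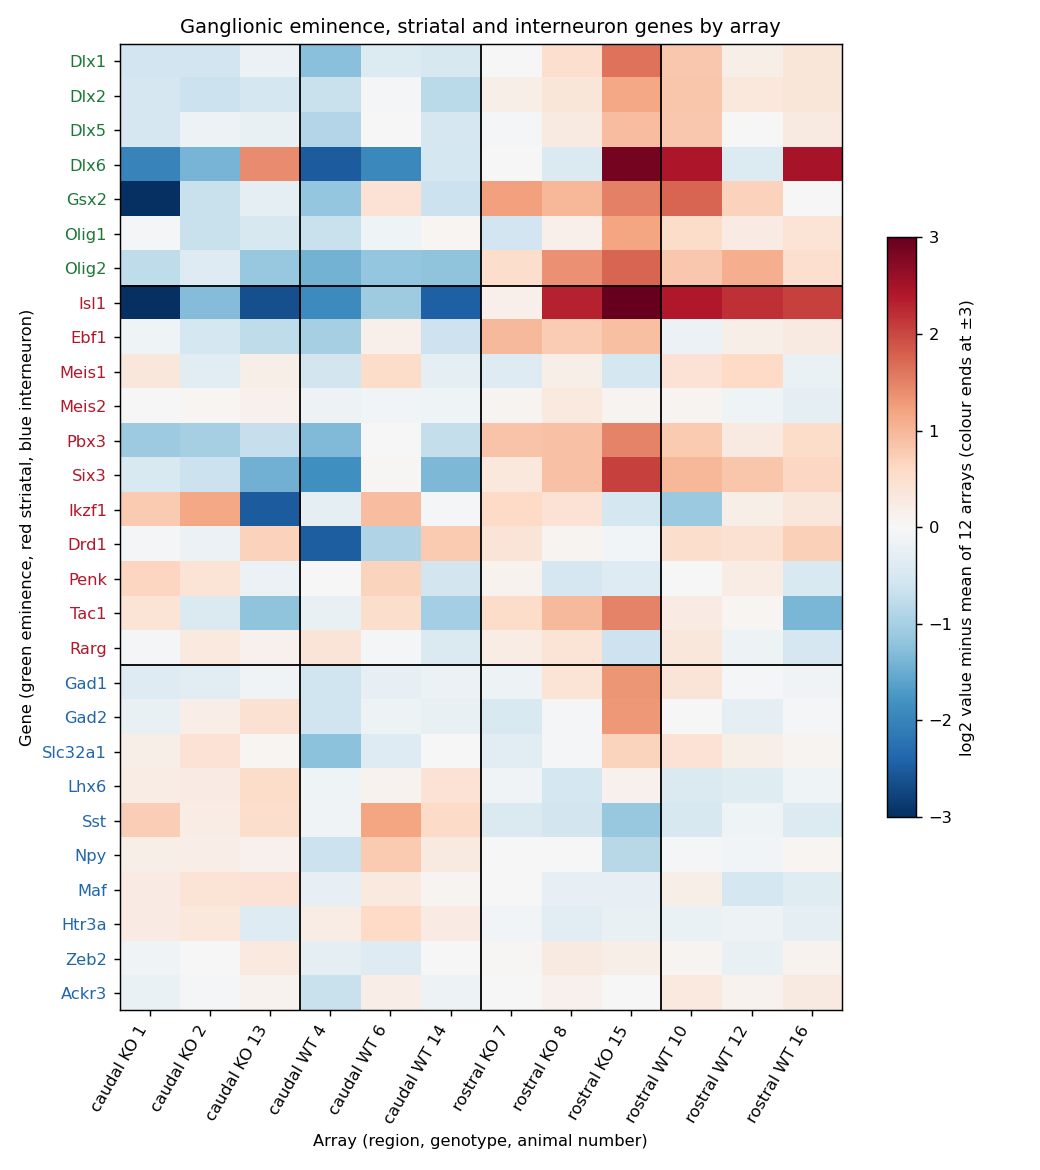
Log2 value of the 28 tested genes on each of the 12 arrays (columns, by region, genotype and animal number), as the difference from the gene's mean over all arrays, with colour ending at 3 either way. Progenitor genes (green names) and Isl1, Pbx3 and Six3 are mostly blue on the caudal arrays at left and red on the rostral arrays at right, and rostral KO array 15 is the highest of its group on all 7 progenitor genes.

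Among the genes of the progenitor list, all 7 tested had a caudal mean below the rostral mean in both genotypes. The median log2 difference was -1.15 in KO and -1.17 in WT cortex, beside -0.01 and -0.02 over all tested genes. Dlx6 and Olig2 exceeded 5.21 on rostral arrays alone, and Gsx2 on rostral arrays and caudal WT array 6 alone. These genes entered the tests through rostral cortex, so this count and these medians are a description. Olig2, a basic helix-loop-helix factor of ventral progenitors and the oligodendrocyte lineage, had log2 values of 4.72, 5.08 and 4.35 in caudal KO cortex, against 6.02, 6.86 and 7.23 in rostral KO cortex. It had 4.05, 4.33 and 4.27 in caudal WT cortex, against 6.29, 6.57 and 6.00 in rostral WT cortex. Every caudal array lay below every rostral one, and all 6 caudal arrays lay at or below 5.21, a level called dim here, at which values carry little order. Olig2 was thus at least 2.80-fold lower in caudal than rostral KO cortex (means 4.72 and 6.70, adjusted p = 0.0148 by limma) and at least 2.10-fold lower in WT cortex (means 4.22 and 6.28, adjusted p = 0.0101). Its neighbour on chromosome 16, Olig1, averaged 5.88 ± 0.31 in caudal KO, 6.53 ± 0.88 in rostral KO, 6.03 ± 0.38 in caudal WT and 6.69 ± 0.16 in rostral WT cortex (SD, n = 3 each), with an averaged difference of -0.66 that did not pass (adjusted p = 0.186 by limma). Olig1 passed as lower in caudal cortex without rostral KO array 7.

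Dlx1 and Dlx2, neighbours on chromosome 2, encode homeodomain factors that eminence progenitors need to make GABAergic neurons. Dlx2 stood at 7.64, 7.48 and 7.61 in caudal KO cortex and 8.30, 8.49 and 9.29 in rostral KO cortex. The WT arrays stood at 7.47, 8.11 and 7.32 caudally and at 8.96, 8.44 and 8.49 rostrally. The regions did not overlap in either genotype, though caudal WT array 6 came close to the rostral arrays. Averaged over genotypes, Dlx2 fell by 1.06 ± 0.18 (SE) on the log2 scale in caudal cortex, a 2.08-fold difference (adjusted p = 0.00393 by limma). In single genotypes its adjusted p was 0.0528 in KO and 0.0796 in WT cortex.

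Dlx1 had log2 values of 8.19, 8.17 and 8.57 in caudal KO and 8.74, 9.25 and 10.38 in rostral KO cortex. Its WT values were 7.49, 8.33 and 8.27 caudally and 9.56, 8.93 and 9.12 rostrally. Its averaged difference was -1.16 ± 0.24 (adjusted p = 0.0132 by limma), so both genes of the pair were lower in caudal cortex with no overlap between regions. Dlx5, a later-acting member of the family, had 7.18, 7.54 and 7.47 in caudal KO and 7.63, 7.95 and 8.62 in rostral KO cortex, and 6.81, 7.67 and 7.19 in caudal WT and 8.49, 7.69 and 7.94 in rostral WT cortex. Its averaged difference of -0.75 ± 0.19 passed narrowly (adjusted p = 0.0432 by limma) and was under the threshold in 11 of 26 alternatives (0.0229 to 0.174). It passed without caudal WT array 6, rostral KO array 7 or rostral WT array 12, and was lost without any one of the other 9 arrays.

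Dlx6, next to Dlx5 on chromosome 6, was near the bottom of the scale on most arrays. It had values of 0.83, 1.43 and 4.23 in caudal KO and 2.81, 2.39 and 5.70 in rostral KO cortex. In WT cortex it had 0.33, 0.89 and 2.28 caudally and 5.25, 2.42 and 5.28 rostrally. These values spread widely within groups and lay above 5.21 on 3 arrays alone, all rostral, so no difference passed (averaged adjusted p = 0.255 by limma). Gsx2, the homeodomain factor that patterns the lateral eminence, had 1.14, 4.33 and 4.69 in caudal KO and 6.23, 6.00 and 6.50 in rostral KO cortex. It had 3.84, 5.42 and 4.35 in caudal WT and 6.73, 5.67 and 4.999 in rostral WT cortex, where the regions overlapped. The averaged difference of -2.06 ± 0.55 missed the threshold (adjusted p = 0.0505 by limma). It passed in 7 of 25 alternatives (adjusted p from 0.0252 to 0.139), among them leaving out any one caudal KO array or caudal WT array 6.

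**Figure D2:**
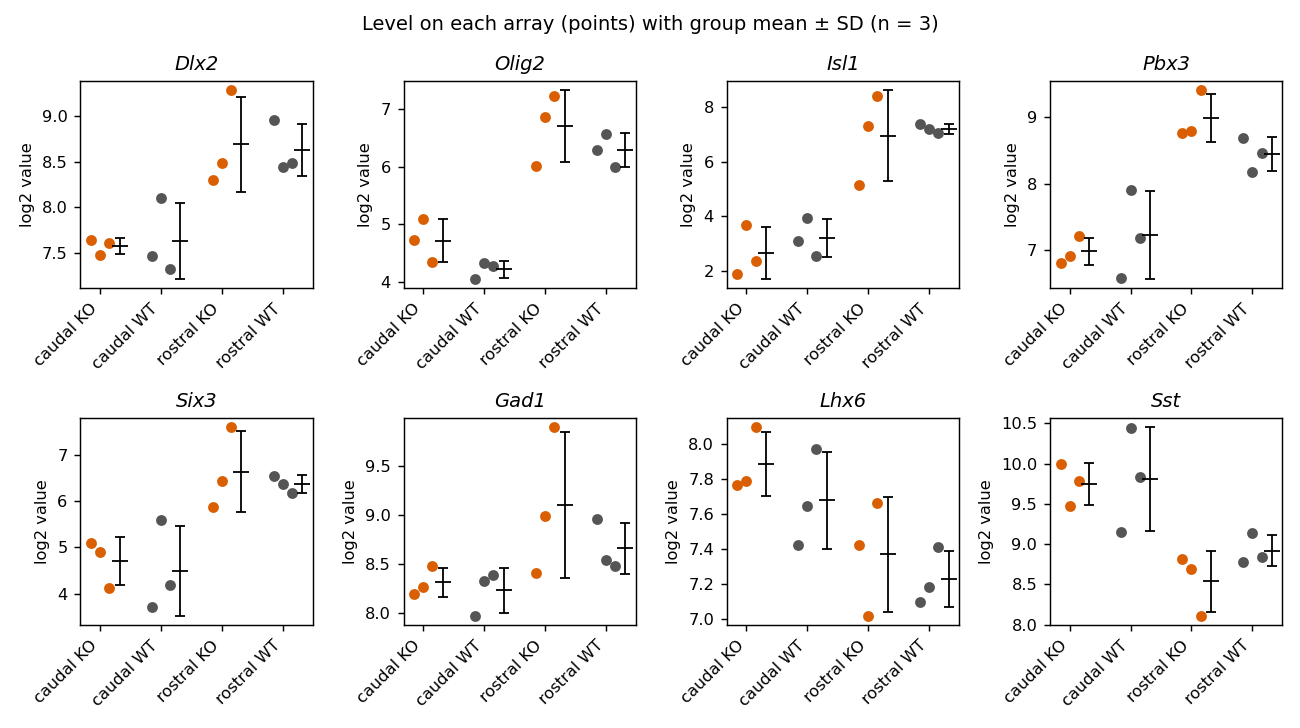
Log2 value of 8 members on each array (points, KO in orange and WT in grey) with the mean and SD of each group of 3, from caudal KO at left to rostral WT at right. Olig2, Isl1 and Pbx3 lie lower on every caudal array than on every rostral array of the same genotype, Sst lies higher on every caudal array, and Gad1 overlaps between regions in KO cortex.

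Among the 11 tested striatal genes, the differences ran both ways, with medians of -0.35 in KO and -0.37 in WT cortex. Isl1, a LIM-homeodomain factor of striatal projection and cholinergic neurons, was lower in caudal cortex in both genotypes. On its probe set of higher mean it had 1.86, 3.69 and 2.36 in caudal KO cortex, against 5.15, 7.31 and 8.41 in rostral KO cortex. In WT cortex it had 3.09, 3.92 and 2.54 caudally, against 7.39, 7.19 and 7.04 rostrally. It was dim on all 6 caudal arrays, and rostral KO array 7 was the lowest of the 6 rostral arrays.

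Isl1 was at least 3.35-fold lower in caudal than rostral KO cortex (means 2.64 and 6.96, adjusted p = 0.0133 by limma) and at least 3.97-fold lower in WT cortex (means 3.19 and 7.20, adjusted p = 0.0179). The other Isl1 probe set gave the same picture, with 3.54, 3.52 and 1.44 in caudal KO and 5.66, 8.38 and 8.95 in rostral KO cortex. Its WT values were 0.85, 1.91 and 0.92 caudally and 8.34, 7.75 and 7.71 rostrally. It passed in both genotypes among the 21288 tested probe sets (adjusted p = 0.0183 in KO and 0.00263 in WT by limma), where 0.437% and 0.446% of all probe sets passed.

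Pbx3, a homeodomain cofactor of Meis proteins, had 6.82, 6.92 and 7.22 in caudal KO and 8.77, 8.80 and 9.41 in rostral KO cortex. In WT cortex it had 6.59, 7.91 and 7.19 caudally and 8.69, 8.19 and 8.47 rostrally. The regions did not overlap in either genotype. The difference was -2.01 ± 0.28 in KO (adjusted p = 0.00664 by limma) and -1.22 ± 0.28 in WT cortex (adjusted p = 0.0563), and the difference between these differences was not past the threshold (-0.79 ± 0.39, adjusted p = 0.999). Its other tested probe set also passed in the averaged contrast (-1.19, adjusted p = 0.00462 by limma over probe sets, of which 2.81% passed).

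Six3, which maintains precursors of striatal neurons, had 5.10, 4.91 and 4.11 in caudal KO and 5.88, 6.44 and 7.60 in rostral KO cortex. Its WT values were 3.71, 5.59 and 4.20 caudally and 6.56, 6.38 and 6.18 rostrally. All rostral arrays lay above all caudal ones of their genotype, and the 3 caudal KO arrays were dim. The caudal KO mean thus lay at least 2.69-fold below the rostral KO mean (4.71 and 6.64), a difference that did not pass (adjusted p = 0.0878 by limma). The averaged difference as measured was -1.90 ± 0.35 (adjusted p = 0.00692 by limma), and with lower values raised to 5.21 it was -1.23 (adjusted p = 0.00824). Six3 did not pass with animals 1 to 12 only (adjusted p = 0.0676). Ebf1, a factor of the direct striatal pathway, had group means of 4.40 in caudal KO, 5.75 in rostral KO, 4.38 in caudal WT and 4.96 in rostral WT cortex, with an averaged difference of -0.96 ± 0.26 (adjusted p = 0.0534 by limma). It was dim in all groups except rostral KO cortex, and it passed in some alternatives, among them without caudal WT array 6.

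Meis2, a TALE homeodomain factor of the striatal lineage, differed little between regions. Its brightest probe set read 11.58, 11.64 and 11.70 in caudal KO and 11.66, 11.86 and 11.65 in rostral KO cortex, and 11.41, 11.50 and 11.43 in caudal WT and 11.66, 11.44 and 11.30 in rostral WT cortex. The averaged difference of -0.05 had a 95% confidence interval of -0.19 to 0.08. Drd1, the dopamine receptor of the direct pathway, had 5.71, 5.58 and 6.44 in caudal KO and 6.12, 5.84 and 5.67 in rostral KO cortex. In WT cortex it had 3.28, 4.85 and 6.52 caudally and 6.26, 6.19 and 6.47 rostrally. Drd1 did not pass with all arrays. Without caudal WT array 14 it passed as lower in caudal cortex, both in WT cortex and in the averaged contrast.

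Tac1, which encodes substance P, had 6.14, 5.29 and 4.51 in caudal KO and 6.28, 6.69 and 7.22 in rostral KO cortex. In WT cortex it had 5.51, 6.25 and 4.70 caudally and 5.98, 5.79 and 4.36 rostrally. Caudal and rostral arrays overlapped in WT and not in KO cortex, and neither regional difference passed (adjusted p = 0.245 in KO and 0.977 in WT cortex by limma). Meis1, Ikzf1, Penk and Rarg had averaged differences between -0.03 and 0.33, none past the threshold (adjusted p from 0.541 to 0.991 by limma).

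**Figure D3:**
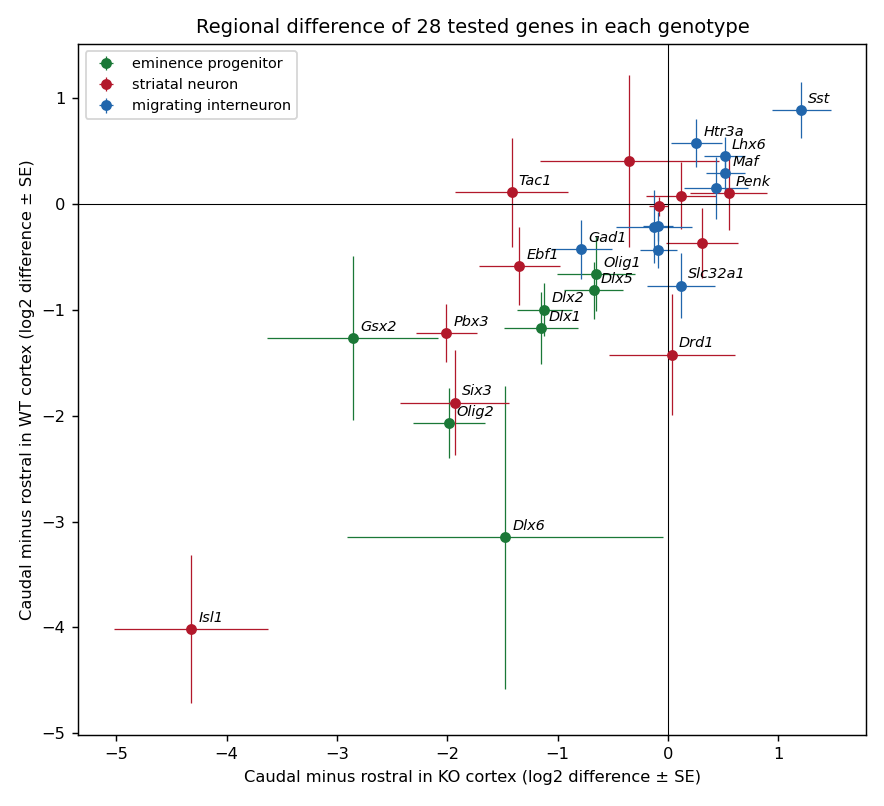
Caudal minus rostral log2 difference of the 28 tested genes in KO cortex (horizontal axis) and in WT cortex (vertical axis), with bars of 1 SE each way and names where either difference is 0.5 or more in size. All 7 progenitor genes (green) lie at lower left, from Olig1 and Dlx5 to Dlx6, while Sst lies at upper right with 1.21 in KO and 0.89 in WT cortex.

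The 10 tested interneuron genes differed both ways, with medians of 0.19 in KO and -0.03 in WT cortex. Sst, the neuropeptide somatostatin of interneurons from the medial eminence, had 9.99, 9.47 and 9.78 in caudal KO and 8.81, 8.69 and 8.11 in rostral KO cortex. The WT arrays read 9.15, 10.44 and 9.84 caudally and 8.78, 9.14 and 8.84 rostrally. Every caudal array exceeded every rostral array of its genotype. Averaged over genotypes, Sst was higher by 1.05 ± 0.19, a 2.07-fold difference (adjusted p = 0.00624 by limma). In KO cortex alone its adjusted p was 0.0528, and in WT cortex 0.166. Sst passed in KO cortex in some alternatives, among them without caudal WT array 6 and without the 2 arrays of high Xist.

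Lhx6, the LIM-homeodomain factor that specifies interneurons of the medial eminence, leaned the same way as Sst. It had 7.77, 7.79 and 8.10 in caudal KO and 7.42, 7.02 and 7.67 in rostral KO cortex, and 7.42, 7.64 and 7.97 in caudal WT and 7.10, 7.18 and 7.41 in rostral WT cortex. The averaged difference was 0.48 ± 0.13 and missed the threshold (adjusted p = 0.0544 by limma). With animals 13 to 16 as a block it passed (adjusted p = 0.00491), and it also passed without caudal WT array 4 or rostral KO array 15.

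Maf, another factor of these interneurons, had 8.49, 8.66 and 8.67 in caudal KO and 8.26, 7.99 and 8.00 in rostral KO cortex, and 8.00, 8.54 and 8.33 in caudal WT and 8.41, 7.72 and 7.87 in rostral WT cortex. The regions overlapped in WT cortex, and the averaged difference was 0.41 ± 0.13 (adjusted p = 0.0932 by limma). Maf passed as higher in some alternatives, among them without caudal WT array 4 or rostral WT array 10. A second Maf probe set, with means of 7.82, 6.84, 7.59 and 6.94 in caudal KO, rostral KO, caudal WT and rostral WT cortex, had an averaged difference of 0.82 that passed among the probe sets (adjusted p = 0.0124 by limma). Npy, the peptide neuropeptide Y, had 7.66, 7.69 and 7.63 in caudal KO and 7.48, 7.52 and 6.67 in rostral KO cortex, and 6.86, 8.27 and 7.76 in caudal WT and 7.47, 7.41 and 7.56 in rostral WT cortex, an averaged difference of 0.29 ± 0.21 (adjusted p = 0.513). Htr3a, the serotonin receptor of caudal eminence interneurons, averaged 5.89 in caudal KO, 5.63 in rostral KO, 6.19 in caudal WT and 5.62 in rostral WT cortex (averaged adjusted p = 0.198 by limma).

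The genes for GABA synthesis and packaging, which all of these neurons share, did not follow Sst. Gad1 had 8.20, 8.26 and 8.48 in caudal KO and 8.41, 8.99 and 9.89 in rostral KO cortex, and 7.97, 8.33 and 8.39 in caudal WT and 8.96, 8.55 and 8.48 in rostral WT cortex. The regions overlapped in KO and not in WT cortex. Its averaged difference was -0.61 ± 0.20 (adjusted p = 0.108 by limma). Gad1 passed as lower in caudal cortex with animals 13 to 16 as a block or without rostral KO array 7. On its probe set of higher mean, Gad2 had 6.57, 7.01 and 7.27 in caudal KO and 6.35, 6.78 and 8.10 in rostral KO cortex. In WT cortex it had 6.21, 6.66 and 6.59 caudally and 6.82, 6.53 and 6.77 rostrally. The regions overlapped in both genotypes, with an averaged difference of -0.17 ± 0.24. The other tested Gad2 probe set read 5.72, 6.79 and 6.69 in caudal KO and 7.21, 6.99 and 7.83 in rostral KO cortex, without overlap. Its WT arrays overlapped, with 5.51, 7.20 and 6.30 caudally and 6.65, 6.96 and 6.61 rostrally.

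Slc32a1, the vesicular GABA transporter, had 6.48, 6.74 and 6.35 in caudal KO and 5.98, 6.25 and 6.98 in rostral KO cortex, and 5.07, 5.91 and 6.30 in caudal WT and 6.73, 6.48 and 6.38 in rostral WT cortex. Caudal WT arrays lay below rostral WT arrays, and KO arrays overlapped (adjusted p = 0.37 in WT by limma). Ackr3, a chemokine receptor that guides migrating interneurons, had 9.32, 9.48 and 9.63 in caudal KO and 9.53, 9.64 and 9.51 in rostral KO cortex, and 8.84, 9.71 and 9.37 in caudal WT and 9.82, 9.62 and 9.79 in rostral WT cortex. Its adjusted p was 0.346 in WT cortex by limma. Zeb2 overlapped between regions in both genotypes on its brightest probe set, with means of 9.50 and 9.59 in caudal and rostral KO and 9.21 and 9.42 in caudal and rostral WT cortex. Zeb2 probe set 1434298_at read 7.69, 7.82 and 6.89 in caudal KO and 8.55, 8.88 and 8.19 in rostral KO cortex, without overlap, and overlapped in WT cortex.

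The directions could be set side by side in the KO and WT comparisons, which share no array. Of the 28 members, 23 had the same sign in both, beside 63.5% of all tested genes. In KO cortex alone, 10 members lay lower caudally and 4 higher without overlap of the regions, beside 12.1% and 8.78% of all tested genes. In WT cortex alone these were 11 and 3, beside 8.99% and 4.96%. The groups did not overlap in either genotype for 7 members that were lower caudally (Dlx1, Dlx2, Dlx5, Olig2, Isl1, Pbx3 and Six3), beside 3.4% of all tested genes, and for 2 that were higher (Lhx6 and Sst), beside 1.39%. Olig2, Isl1 and Six3 passed the filter through the rostral arrays, so these counts are a description. In bulk tissue, fewer cells of a type and less RNA per cell cannot be told apart.

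Calls within one genotype rested on few arrays. In WT cortex, leaving out rostral array 10 ended the calls of Olig2 (adjusted p = 0.0536) and Isl1 (0.0995), as did leaving out rostral array 12 (0.0597 and 0.0755), and Isl1 was also lost without caudal array 14 (0.0597) or rostral array 16 (0.0564). In KO cortex, leaving out rostral array 8 ended the calls of Olig2 (0.103) and Isl1 (0.0943), as did leaving out rostral array 15 (0.0751 and 0.0644), and Pbx3 was the member that remained called. Without caudal WT array 6, 5 members passed in WT cortex (Dlx2, Isl1, Olig2, Pbx3 and Six3) and 6 in KO cortex (the same 5 and Sst). Without rostral KO array 15, 5 passed in WT cortex (Dlx1, Dlx2, Isl1, Olig2 and Pbx3). Over all tested genes, 97, 111 and 128 were called in the same order. With all lower values raised to 5.21, neither gene passed in WT cortex (Olig2 0.0679, Isl1 0.12), and Isl1 was lost in KO cortex (0.172), where Ebf1, Olig2 and Pbx3 then passed. A fit of the KO arrays alone lost Olig2 (0.0507) and Isl1 (0.0544) and called Pbx3 and Sst. Without the 2 arrays of high Xist, both WT calls were lost (Olig2 0.0922, Isl1 0.0882) and Pbx3 passed instead. With animals 1 to 12 only, the KO calls were lost (Olig2 0.122, Isl1 0.104, Pbx3 0.0536), as was Isl1 in WT cortex (0.0712). In the averaged contrast, Dlx1, Dlx2, Olig2, Isl1 and Pbx3 passed under every alternative that gave a value, and Isl1 then fell by 1.88 with the raised values (adjusted p = 0.0152 by limma) instead of by 4.17.

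Arrays of one group differed among themselves in these genes. Rostral KO array 15, which also stood apart in markers of meninges and vessels, was the highest of its group on 7 of 7 progenitor genes, and rostral KO array 7 the lowest on 5. Caudal WT array 4 was the lowest of its group on 6 of 7 progenitor, 7 of 11 striatal and 9 of 10 interneuron genes. Caudal WT array 6, with high Xist, was the highest on 5, 9 and 6. The part of these arrays' composition in the regional differences was not tested.

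A list of 45 other genes of the ventral forebrain was read in the same comparison, with 27 tested. In the averaged contrast 10 were lower in caudal cortex, beside 3.21% of all tested genes, 2 were higher, beside 1.26%, and 15 did not pass. In single genotypes 4 were lower in KO cortex, beside 0.73% of all tested genes, and 5 in WT cortex, beside 0.687%. Its mean per array ran from 7.28 to 7.50 in caudal KO, 7.70 to 8.42 in rostral KO, 7.33 to 7.63 in caudal WT and 7.72 to 7.93 in rostral WT cortex, so regions did not overlap. Among the lower genes, Otx2 and Vax1 passed the filter through the rostral arrays, where they were high. The counts and means of this list are therefore a description. Whether its means separate without these genes was not tested. Calb2, the calretinin of interneurons from the caudal eminence and olfactory bulb lineages, averaged 6.39 in caudal KO and 8.43 in rostral KO cortex (adjusted p = 0.000906 by limma), and 7.08 in caudal WT and 8.12 in rostral WT cortex (adjusted p = 0.0324).

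Sp8, a zinc-finger factor of the dorsal lateral eminence and also of rostral cortical progenitors, averaged 5.97 and 8.11 in caudal and rostral KO cortex and 6.30 and 7.83 in caudal and rostral WT cortex (adjusted p = 0.00791 and 0.0373 by limma). Foxp2, of striatal and deep cortical neurons, fell by 1.40 in caudal KO cortex (adjusted p = 0.00791) and by 1.13 in caudal WT cortex (adjusted p = 0.025), both by limma against the rostral piece. Robo1 (-1.05, adjusted p = 0.0124) and Ppp1r1b (-1.42, adjusted p = 0.0361) passed in WT cortex, and Vax1 (-1.79, adjusted p = 0.0389) in KO cortex, by limma. Otx2, Zfhx3, Satb1 and Dlx6os1, the transcript beside Dlx6, were lower in the averaged contrast alone, and Calb1 (0.94, adjusted p = 0.00828) and the chemokine receptor gene Cxcr4 (0.49, adjusted p = 0.0243) were higher there by limma. Several of these genes are also expressed in the pallium.

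Markers of other tissues that a cortical piece could hold were read in the same averaged contrast. Zic1, of septum and diencephalon, was lower in caudal cortex by limma (-2.91, adjusted p = 9.72e-05), as was Dct of pigment cells (-3.35, adjusted p = 0.00122). They were the 1 gene called of 7 tested of 11 in the diencephalic list and the 1 called of 3 tested of 9 in the olfactory, retinal and pigment list. The mean of the first list ran from 5.68 to 6.91 in caudal KO, 7.11 to 7.34 in rostral KO, 6.39 to 6.75 in caudal WT and 6.73 to 7.15 in rostral WT cortex. That of the second ran from 4.69 to 6.29, 6.78 to 7.17, 4.76 to 5.82 and 6.74 to 7.19 in the same order. In the choroid plexus list 1 gene of 3 tested passed (Otx2, lower), and 0 passed by limma in the Cajal-Retzius (8 tested), hem and hippocampal (11), meninges and vascular (10) and microglia and blood lists (7), with unadjusted p under 0.05 for 0, 3, 0 and 2 of them. These 3 and 2 genes were all lower. Over all 11785 tested genes, 1306 were lower and 736 higher at that level. Pallial identity genes had a median of 0.05, with Tbr1, Pax6 and Slc17a6 lower in caudal cortex among 15 tested. The part of these tissues in the regional differences of the members was not tested.

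The knockout comparison asks whether these genes depended on AP2gamma. By limma, 0 of 28 members passed in caudal cortex and 0 in rostral cortex, where 0 of 11785 genes passed in either and 4.06% and 6.69% had an unadjusted p under 0.05. Averaged over both regions 0 members passed, against 0.0339% of all tested genes, and 0 passed for the difference of the knockout effects between regions, where 0 of all tested genes passed and 3.04% had an unadjusted p under 0.05 (0 of the members). At an unadjusted p under 0.05, 2 members were higher and 0 lower in caudal, in rostral and in averaged cortex, against 1.93%, 3.26% and 3.53% of all tested genes that were higher and 2.13%, 3.44% and 4% that were lower. In either direction the averaged share was 7.53%. Median log2 differences of the members were 0.16 in caudal, 0.09 in rostral and 0.15 in averaged cortex, against -0.00, -0.02 and -0.01 over all tested genes. Of the 28 members, 15 had the same sign in both regions, beside 56.2% of all genes, and 0 separated KO from WT arrays in both, beside 0.501% of all genes that did so as higher and 0.679% as lower in KO. Among the marker lists, 1 pallial gene was lower in KO cortex in the averaged contrast (adjusted p = 0.0384 by limma), and 0 genes passed in the other ventral list, where 5 were higher at an unadjusted p under 0.05.

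Meis2 had the smallest p of the members. Its KO arrays exceeded its WT arrays in caudal cortex, with overlap in rostral cortex, and the averaged difference was 0.22 ± 0.06 (adjusted p = 0.397 by limma). Its 3 other probe sets had averaged differences of -0.06, -0.03 and 0.40. Zeb2, a zinc-finger factor that directs interneurons to the cortex, had 9.33, 9.44 and 9.72 in caudal KO and 9.15, 9.03 and 9.44 in caudal WT cortex. In rostral cortex it had 9.47, 9.69 and 9.60 in KO and 9.51, 9.21 and 9.54 in WT arrays. The averaged difference was 0.23 ± 0.10 (adjusted p = 0.617 by limma). Other Zeb2 probe sets differed in direction. In rostral cortex, 1434298_at read 8.19 to 8.88 in KO and 7.30 to 8.17 in WT arrays. Probe set 1422748_at separated them the other way, with 8.89 to 9.21 in KO and 9.25 to 9.45 in WT arrays.

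Within caudal cortex, KO arrays lay above WT arrays for Olig2, Meis2 and Slc32a1, beside 3.84% of all genes, and below them for 0 members, beside 3.67%. For Olig2 all 6 arrays were dim, where values carry little order, and 4.35 was the lowest KO and 4.33 the highest WT value. Slc32a1 differed by 0.77 ± 0.31 (adjusted p = 0.998 by limma). Within rostral cortex, KO arrays lay above WT arrays for Ebf1, Pbx3 and Tac1, beside 5.46%, and below them for Drd1, beside 7.5%. Tac1 had the largest such value, 1.35 ± 0.51 (adjusted p = 0.665 by limma).

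The intervals show what 3 arrays a group could resolve. Averaged over regions, the 95% confidence interval of the KO difference was -0.37 to 0.38 for Dlx2, -0.25 to 0.78 for Dlx1, -0.16 to 0.68 for Gad1, -0.11 to 0.94 for Gad2, -0.11 to 0.45 for Lhx6, -0.63 to 0.19 for Sst and -0.56 to 0.33 for Npy. For Isl1 it was -1.46 to 0.67 and for Dlx6 -2.03 to 2.33. Of the tested members whose promoter window held the AP2 palindrome, Gad2 differed by 0.42, Zeb2 by 0.23 and Ikzf1 by -0.02 (adjusted p = 0.762, 0.617 and 0.996 by limma).

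**Figure D4:**
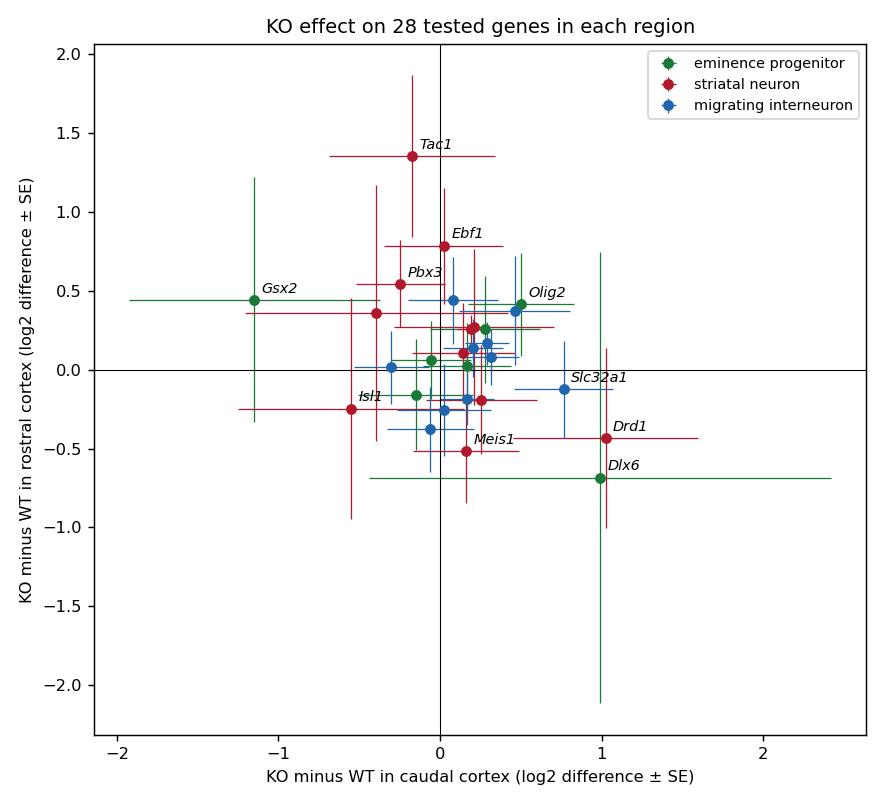
KO minus WT log2 difference of the 28 tested genes in caudal cortex (horizontal axis) and in rostral cortex (vertical axis), with bars of 1 SE each way and names where either difference is 0.5 or more in size. The points gather around the origin, the wide bars belong to dim genes such as Dlx6 and Gsx2, and Tac1 at 1.35 in rostral cortex lies at -0.17 in caudal cortex.

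Probe sets of one gene did not always agree across arrays. Meis2 probe set 1440091_at read 8.29 to 9.50 for animals 13 to 16 and 6.62 to 8.02 on the other 8 arrays. Zeb2 probe sets 1454200_at (7.72 to 8.67 against 5.89 to 7.06) and 1458941_at (7.54 to 8.36 against 6.39 to 7.19) showed the same split. The brightest probe sets of both genes did not. Lhx6 and Dlx6 were above the other 2 arrays of their group on all 4 arrays of these animals, a pattern found in 7.69% of all tested probe sets. The source of this split was not tested.

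**Figure D5:**
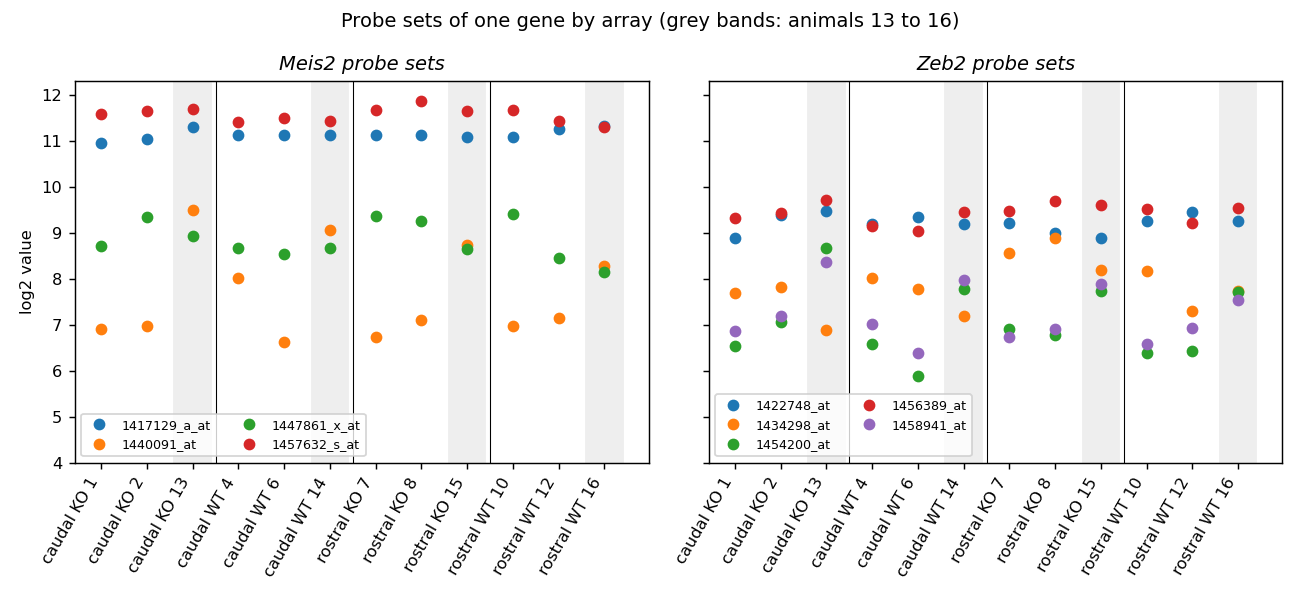
Log2 value of the 4 probe sets of Meis2 (left) and the 5 of Zeb2 (right) on each of the 12 arrays, with grey bands over animals 13 to 16. Meis2 1440091_at and Zeb2 1454200_at and 1458941_at are higher inside the bands than outside, and the brightest probe sets are not.

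The 7 members that were not tested lay low on most arrays. Nkx2-1, the factor that defines the medial eminence, ran from 2.40 to 4.91 and was dim in all 4 groups, as were Gsx1, Nkx6-2, the dopamine receptor gene Drd2 and the neuregulin receptor gene Erbb4. The defining marker of medial eminence progenitors was thus not read above the median of the table in either region. Prox1, of caudal eminence interneurons, exceeded 5.21 on 1 array, caudal WT array 4 (5.24). Lhx8, of medial eminence cholinergic neurons, stood at 0.05, 2.47 and 2.42 in caudal KO and 2.17, 5.39 and 8.38 in rostral KO cortex, and at 1.05, 1.01 and 0.64 in caudal WT and 4.91, 4.39 and 4.93 in rostral WT cortex. It exceeded 5.21 on rostral KO arrays 8 and 15 alone.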

How the data were processed

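RNA was labelled with biotin from 400 ng per sample and read on 1-colour oligonucleotide arrays, per the labels' protocols. The deposited values are on a log2 scale, normalised between arrays by the authors, as their near equal quartiles on the 12 arrays show. The software, background correction and summarisation are not given in the sources used here. The number of arrays limits the precision. Of 45101 probe sets, 34958 were annotated to 1 gene, 932 to several and 9211 to none. Per gene, the tested probe set of highest mean was used. The fit was limma 3.58.1 in R 4.3.3 (lmFit and eBayes with an intensity trend) over 4 group means on all 12 arrays, with Benjamini-Hochberg adjustment over all 11785 genes, and it was tested on simulated data. Levels of different probe sets were not compared. P-values measure the spread between these samples, and the labels call each a separate animal. For a group with all 3 arrays at or below 5.21, a fold is a lower bound, the other group's measured mean against this group with its values raised to 5.21. The members, marker lists and tests were chosen with earlier results of these data known, and the regional contrast averaged over KO and WT was added after the data were seen. Members past the threshold, the 2 of smallest p per role and comparison, and 10 genes of fixed choice are given on every array. Alternatives changed the normalisation, the filter, the floor, the probe set rule, the moderation, the weights and the arrays included.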

Additional observations from a re-analysis of the deposited data

Results flagged for a closer look

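Lhx8, a factor of medial eminence cholinergic neurons, was not tested because it exceeded 5.21 on too few arrays. It nevertheless read 8.38 on rostral KO array 15, above the highest WT array, rostral WT array 16 (4.93). The other rostral KO arrays read 2.17 and 5.39. The same array held the highest mean of the meninges and vascular list (7.70). It also held the highest means of the progenitor (7.88), striatal (6.86) and other ventral (8.42) lists, though not of the interneuron list. The part of any of these tissues in the Lhx8 value was not tested.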

How the results depend on the processing

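No paired analysis was possible because the animal numbers differ on all 12 arrays. In WT cortex, 2 members passed in the regional comparison, beside 111 genes over all tested. The 2 members became 0 with values floored at 5.21, 1 (Isl1) with the filter at the 75th percentile (7.55), 1 (Olig2) with animals 1 to 12 only and 1 (Pbx3, with Isl1 and Olig2 both lost) without the arrays of high Xist. Over all tested genes, 116, 87, 72 and 22 were called in the same order. Leaving out 1 array at a time gave 0 to 5, with 5 without caudal WT array 6 or rostral KO array 15, 0 without rostral WT array 10 or 12 and 1 without rostral WT array 16. For these 5 arrays in turn, 97, 128, 27, 44 and 48 genes were called over all tested. In KO cortex, 3 members passed. This became 10 with array weights, 6 with animals 13 to 16 as an additive block and 0 with animals 1 to 12 only. The genes called over all tested moved the same way, from 112 to 637, 342 and 38 in that order. Leaving out 1 array at a time gave 1 to 6, with 6 without caudal WT array 6 and 1 without rostral KO array 8 or 15. Without these arrays in turn, 111, 20 and 36 genes were called over all tested. Averaged over KO and WT, 8 members passed, 5 (Dlx1, Dlx2, Isl1, Olig2 and Pbx3, with Six3, Sst and Dlx5 lost) with animals 1 to 12 only and 7 to 10 when 1 array was left out. Over all tested genes, 526, 351 and 334 to 559 were called in the same order. The subset of animals 1 to 12 has 8 arrays, and the cause of the other changes was not tested. The 4 KO comparisons called 0 members under every alternative that gave a value, and no called regional difference changed sign. A fit of only the groups compared gives no value for the averaged contrasts. Values near or below 5.21 limit Dlx6, Gsx2, Isl1, Olig2, Six3 and Ebf1 in caudal cortex.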
